A study of Mus musculus with 16 samples.

Results

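The comparison described here is that of Klf15 knockout (KO) with wild-type (WT) mouse quadriceps after dexamethasone, a synthetic glucocorticoid. It rests on 8 of the 16 arrays of the series: 4 from KO and 4 from WT mice that received 1 intraperitoneal dose of 2 mg/kg dexamethasone and whose tissue carries the label 8 h. They were chosen by genotype, treatment and tissue as labelled, with no measured value. The other 8 arrays, 4 KO and 4 WT given the same volume of vehicle with the same 8 h label, serve as the control for what genotype alone did. Each array holds RNA of 1 animal per the series' design text, so n = 4 animals per group throughout. For the targeted allele, its reach beyond muscle, and the animals' strain, sex and age, the sources used here give no entry. Samples were whole quadriceps, a thigh muscle, so fewer cells of a type and less RNA per cell cannot be told apart.

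KLF15 is a zinc-finger transcription factor of the Krüppel-like family, whose members bind CACCC and other GC-rich motifs. Glucocorticoid receptor activation induces Klf15 in muscle, liver and fat, and the factor is known for raising enzymes of amino acid breakdown, above all of the branched-chain amino acids leucine, isoleucine and valine. In skeletal muscle, glucocorticoids shift fuel use toward amino acids and fatty acids and induce genes of muscle atrophy.

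A level here is the log2 of a probe's signal minus that of the array's 75th percentile, so 0 marks a probe as bright as the 75th percentile. A gene passed, or was called, when its Benjamini-Hochberg adjusted p from limma was under 0.05 over 25196 tested features, and rose and fell mean higher and lower in KO. Intensity at the 75th percentile was 554 to 1169 over the 16 arrays, and 66.3% to 80.6% of spots were well above background. The correlation between arrays of a group was 0.952 to 0.977 for WT and 0.933 to 0.979 for KO after dexamethasone. Contractile genes of fast muscle, such as Acta1, Myh4 and Tnnt3, were at or above the 99.7th percentile of all features. WT replicate 3 and KO replicate 1 stood apart in the 8 measured neutrophil markers, where the median marker, relative to its mean over 16 arrays, was at 7.86 and 6.55 on the log2 scale, against -2.15 to 0.83 on the other 6. Only slide 8 of the 8 slides held arrays of both groups (WT replicate 4 and KO replicate 3), so slide and genotype are largely confounded. Arrays of the same slide had a consensus correlation of 0.574, and the fit behind the calls treats arrays as independent. WT replicate 3, the dimmest array, was the only one scanned on another date.

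Klf15 itself was measured by 2 probes. With the brighter probe the WT levels were 4.10, 4.77, 3.94 and 4.40 and the KO levels 0.58, 0.24, 0.64 and 0.60. All 4 KO arrays lay far below the lowest WT array. The KO level was 13.9-fold lower (log2 difference -3.79, SE 0.26), and the second probe gave 14.2-fold. For each probe the exact permutation test over the 8 arrays gave p = 0.0286 (two-sided), the smallest that 70 arrangements allow. The remaining signal was well above background on all 4 KO arrays, and the sources used here do not place the probes relative to the targeted sequence.

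Across all features, 463 passed (1.84%), of which 206 fell (0.818%) and 257 rose (1.02%). The falls were the larger: 85 of them exceeded 2-fold and 27 exceeded 4-fold, whereas 49 of the rises exceeded 2-fold and 0 exceeded 4-fold. The median log2 difference was -0.85 among falls and 0.76 among rises. Groups did not overlap for 203 of the falls and for all 257 rises, where over all features 3.67% were lower and 4.19% higher without overlap. The features were called on these same arrays, so this separation is not independent evidence. The number of rises depended on the scaling. With median scaling 24 rose and 181 fell, with quantile normalization 140 and 217, and with the authors' deposited log2 values 148 and 225; normexp background correction left 6 and 41. Over all features the median difference was 0.06, but -0.13 with median scaling and -0.28 with normexp. With slide as a fixed block 7 rose and 38 fell, of which 36 were among the 206 falls and 1 among the 257 rises. Single arrays mattered too: 280 features passed without KO replicate 3 and 298 without KO replicate 2, and 108 passed when the 8 dexamethasone arrays were fitted alone. On slide 8, features called without its arrays had the same sign for 128 of 129 falls and 79 of 81 rises (99.2% and 97.5%, where 41.5% of all features were negative there).

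**Figure D1:**
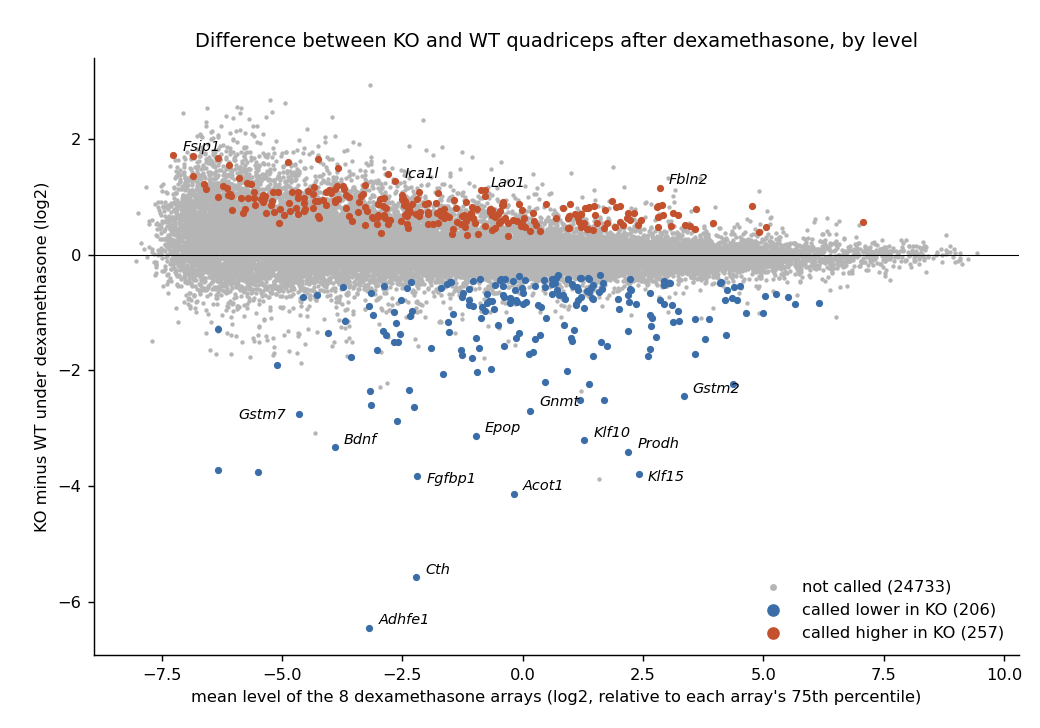
Log2 difference between KO and WT after dexamethasone (vertical) against the mean level of the 8 arrays (horizontal), 1 point per feature. The 206 features called lower reach -6.45 (Adhfe1) and include Klf15 itself, whereas no feature called higher exceeds 1.72 (Fsip1).

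Genes of amino acid breakdown were among the largest falls, and promoters of some are shown because these genes fell together. For the 4 genes of the amino acid lists with the largest falls among those in the RefSeq promoter table (GRCm38.p6), the 150 bases before the annotated start are given, 5′ to 3′ on the gene's strand. Capitals mark CACCC, or its reverse complement GGGTG, the core of the motif that Krüppel-like factors recognise.
Prodh, chr16:18089191-18089340, minus strand: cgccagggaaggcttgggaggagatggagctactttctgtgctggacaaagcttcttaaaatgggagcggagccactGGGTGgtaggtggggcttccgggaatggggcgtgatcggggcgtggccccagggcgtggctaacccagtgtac
Gnmt, chr17:46729166-46729315, minus strand: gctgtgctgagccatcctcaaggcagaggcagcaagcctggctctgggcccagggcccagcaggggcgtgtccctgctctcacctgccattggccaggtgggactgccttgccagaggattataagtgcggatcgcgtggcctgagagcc
Aldh6a1, chr12:84451025-84451174, minus strand: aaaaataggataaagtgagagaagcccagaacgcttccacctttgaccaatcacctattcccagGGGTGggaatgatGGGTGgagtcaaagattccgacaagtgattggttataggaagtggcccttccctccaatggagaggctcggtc
Bcat2, chr7:45570003-45570152, plus strand: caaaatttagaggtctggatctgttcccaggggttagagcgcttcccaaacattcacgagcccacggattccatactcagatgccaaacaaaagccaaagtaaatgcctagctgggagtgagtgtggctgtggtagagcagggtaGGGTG
RefSeq lists 2 starts for Aldh6a1 and Bcat2, of which 1 is shown. The match lay 73 to 69 bases before the start of Prodh, 86 to 82 and 73 to 69 bases before that of Aldh6a1, and 5 to 1 bases before that of Bcat2. Gnmt has none in the 150 bases shown and 2 in 250. On either strand of the 250 bases before the start, CACCC was found in 69.9% of 123 genes that fell and 53.1% of 96 that rose, against 55.9% of 12116 tested genes and 51.3% of all 27025 in the table. A second GC-rich motif, CCNCNCCC (on either strand), was found in 75.6% of those that fell and 72.9% of those that rose, against 59.8% of those tested, so its share was raised in both directions. The palindromic consensus of the glucocorticoid response element (on both strands) was found in 0 of the 123 and 0 of the 96, against 0.322% of those tested. At so low a share 0 is the likeliest count in sets of these sizes, so no lack of the element is shown. These matches describe letters in a window and show no binding.

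Breakdown of branched-chain amino acids was the list with the most falls. Of its 25 measured genes 15 fell and 0 rose, where 0.818% of all features fell. The median log2 difference was -0.58 against 0.06 over all features. Below zero lay 22 of 25, against 10593 of all 25196 features. Relative to all features the list median was -0.64, but -0.064 with normexp. The list was drawn up with earlier results of these data known, so its count is not independent evidence of direction. Under the other scalings 21 to 24 of the 25 stayed below zero, and with normexp 19. With slide as a fixed block 4 passed (Bcat2, Bckdhb, Dbt and Aldh6a1), with normexp 4, on the dexamethasone arrays alone 6, without the arrays marked for evaluation by the scanner software 7, and without the arrays high in neutrophil markers 10.

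In the order of the pathway, Bcat2, the mitochondrial aminotransferase that removes the amino group, came first. Its WT levels were 2.09, 1.50, 1.44 and 1.26 and its KO levels -0.61, -0.30, -0.71 and -0.88, so every KO array lay below every WT array. The fall was 4.58-fold (log2 -2.19, SE 0.19, adjusted p 3.5e-05). Of its other 2 probes one gave -2.29 and the other, dimmer one -0.56 (adjusted p 0.46). The cytosolic enzyme Bcat1, near background, gave 0.95 (SE 0.38, adjusted p 0.28).

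The next step, oxidative decarboxylation by the branched-chain ketoacid dehydrogenase complex, fell at the subunits particular to it. Bckdhb, the E1 beta subunit, had WT levels of 3.33, 3.97, 3.18 and 3.35 and KO levels of 1.99, 1.73, 1.78 and 1.80, with no overlap (log2 -1.63, SE 0.16, adjusted p 7.4e-05). Dbt, the E2 core, had WT levels of -0.22, -0.70, -0.22 and 0.55 and KO levels of -2.06, -2.34, -1.51 and -1.85, 3.46-fold lower (adjusted p 0.0046). These WT arrays were spread over more than a log2 unit, and all lay above the KO arrays. Bckdha, the E1 alpha subunit, fell 1.66-fold (log2 -0.73, SE 0.10). Dld, the E3 subunit shared with other dehydrogenases, gave -0.05 (95% interval -0.28 to 0.18). Of the enzymes that switch the complex, the phosphatase Ppm1k fell 1.50-fold and the kinase Bckdk gave -0.37 (SE 0.15, adjusted p 0.29). A second, dimmer probe of Ppm1k gave -0.27 (adjusted p 0.52).

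Downstream, enzymes of all 3 branches were lower. On the leucine branch, Ivd (isovaleryl-CoA dehydrogenase) had WT levels of 4.49, 4.71, 4.43 and 4.46 and KO levels of 3.04, 3.14, 2.99 and 3.06. Both groups were tight, and the fall was 2.76-fold (log2 -1.46, SE 0.13, adjusted p 3.1e-05). Mccc2, a subunit of methylcrotonyl-CoA carboxylase, fell 2.18-fold and its partner Mccc1 1.40-fold, whereas Auh, the hydratase that follows, gave -0.18 (SE 0.13, adjusted p 0.62). On the isoleucine branch Acadsb fell 1.80-fold (log2 -0.85, SE 0.08), Hsd17b10 1.47-fold and Acat1 1.52-fold.

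Aldh6a1, the dehydrogenase at the end of the valine branch, was the lowest of the list by p-value. WT levels were 5.53, 5.57, 5.38 and 5.50 and KO levels 3.12, 3.46, 3.28 and 3.19. Its fall was 4.70-fold (log2 -2.23, SE 0.09, adjusted p 1.4e-08). On the same branch Echs1, which also serves fatty acid oxidation, fell 2.02-fold and Hibadh 1.61-fold, the latter with 1 pair of arrays of opposite order, while Hibch gave -0.01 (95% interval -0.23 to 0.21). Pccb, a propionyl-CoA carboxylase subunit, fell 1.52-fold, and its partner Pcca gave -0.51 (SE 0.13, adjusted p 0.075, passing without WT replicate 4). The weakest of these calls were lost when single arrays were left out: Hibadh in 10 of 16 such fits, Ppm1k in 8, Mccc1 and Pccb in 5 and Hsd17b10 in 4 (adjusted p at most 0.119).

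**Figure D2:**
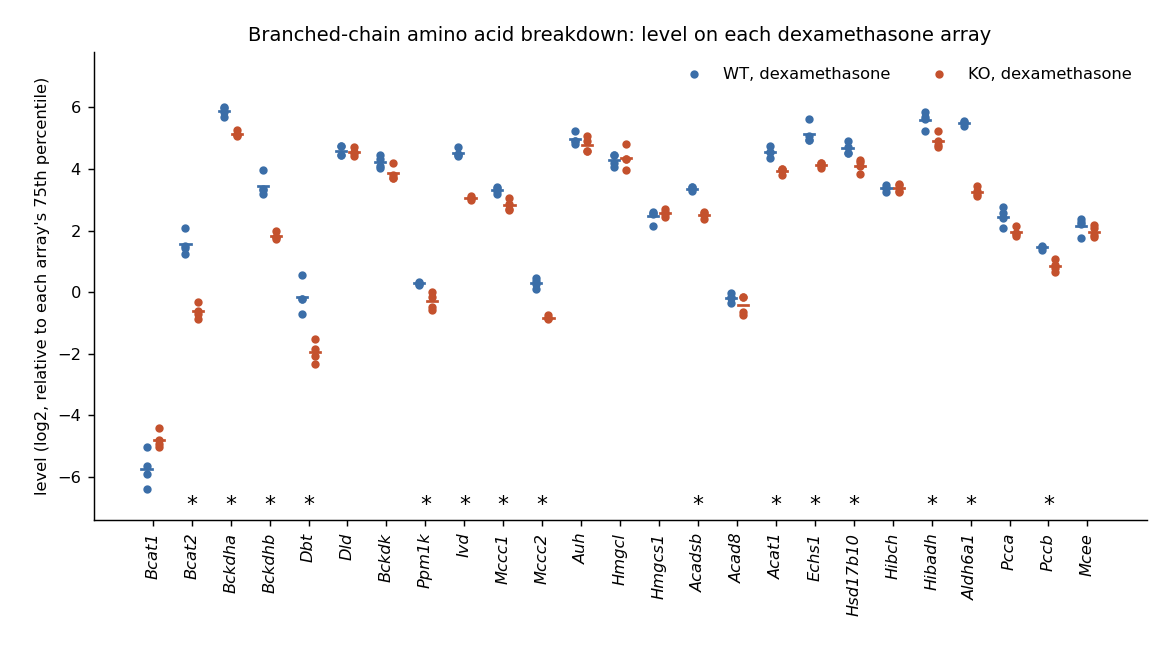
Level on each dexamethasone array (points; bars are group means of 4) for the 25 measured genes of branched-chain amino acid breakdown, in pathway order; asterisks mark the 15 that passed. Bcat2, Bckdhb, Dbt, Ivd and Aldh6a1 show the widest gaps between WT and KO, whereas Dld and Hibch coincide.

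Proline and ornithine enzymes fell in 3 of 12 measured genes, where 0.818% of all features fell, and 0 rose. Prodh, which starts proline oxidation in mitochondria, had WT levels of 3.76, 4.09, 3.80 and 3.92 and KO levels of 0.63, 0.47, 0.53 and 0.34, more than 3 log2 units apart on every pair of arrays. The fall was 10.6-fold (log2 -3.40, SE 0.11, adjusted p 1.7e-09), and -3.41 with slide as a fixed block. Aldh4a1, which carries out the following step to glutamate, fell 2.17-fold (log2 -1.12, SE 0.12), and Oat, ornithine aminotransferase, 1.73-fold (log2 -0.79, SE 0.08). A second, dimmer probe of Aldh4a1 gave -0.43 (adjusted p 0.52). The list median was -0.23, with 8 of 12 below zero, against 10593 of all 25196 features.

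Of 15 measured genes of sulfur amino acids and glutathione 2 fell, both by large factors, and 0 rose, where 0.818% of all features fell. Cth, cystathionine gamma-lyase, which makes cysteine, had WT levels of 0.39, 0.83, 0.43 and 0.66 and KO levels of -4.41, -5.36, -5.03 and -5.17. It was above background on all arrays and 47.6-fold lower in KO (log2 -5.57, SE 0.21, adjusted p 6.7e-09). Its size depended on the scale near background, being -4.46 with the deposited values and -2.97 with normexp. Gnmt, the glycine methyltransferase that uses up methyl groups from methionine, had WT levels of 1.79, 1.71, 1.46 and 1.06 and KO levels of -1.02, -0.85, -1.65 and -1.29, a 6.52-fold fall. Cbs, the enzyme before Cth, gave -1.15 with an SE of 0.52 (adjusted p 0.34), its 4 KO arrays all below the WT arrays.

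Enzymes that move nitrogen fell in 3 of 13 measured genes, where 0.818% of all features fell. Gpt, cytosolic alanine aminotransferase, had WT levels of 3.93, 4.01, 3.77 and 3.55 and KO levels of 2.88, 2.63, 2.63 and 2.51. The groups did not overlap and the fall was 2.22-fold (log2 -1.15, SE 0.12, adjusted p 0.00011). The mitochondrial form Gpt2 gave -0.18 (SE 0.17, adjusted p 0.73). Ass1 and Asl, which form arginine by way of argininosuccinate, fell 2.53-fold and 1.78-fold. Aspartate aminotransferases Got1 and Got2 gave -0.21 and -0.25 (adjusted p 0.48 and 0.55), and glutamine synthetase Glul gave -0.30 (95% interval -0.68 to 0.07). Of 16 genes for other amino acids only Kyat3, a kynurenine aminotransferase, passed, 4.03-fold lower, where 1.84% of all features passed.

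Among 22 amino acid transporters 2 fell, where 0.818% of all features did. Slc43a1, a transporter of large neutral amino acids including the branched-chain ones, had WT levels of 2.64, 4.56, 3.21 and 3.53 and KO levels of 2.03, 1.71, 1.73 and 1.48. WT arrays were widely spread but all exceeded the KO arrays, and the fall was 3.36-fold (log2 -1.75, SE 0.29, adjusted p 0.0061). Slc38a3, a glutamine transporter, fell 1.83-fold (log2 -0.87, SE 0.14). None of the 21 listed genes of the amino acid stress response (ATF4 targets and one-carbon enzymes) passed, where 1.84% of all features did. Outside this list, the one-carbon enzymes Mthfd1 (log2 -0.46) and Aldh1l1 (-1.30, described below) fell.

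**Figure D3:**
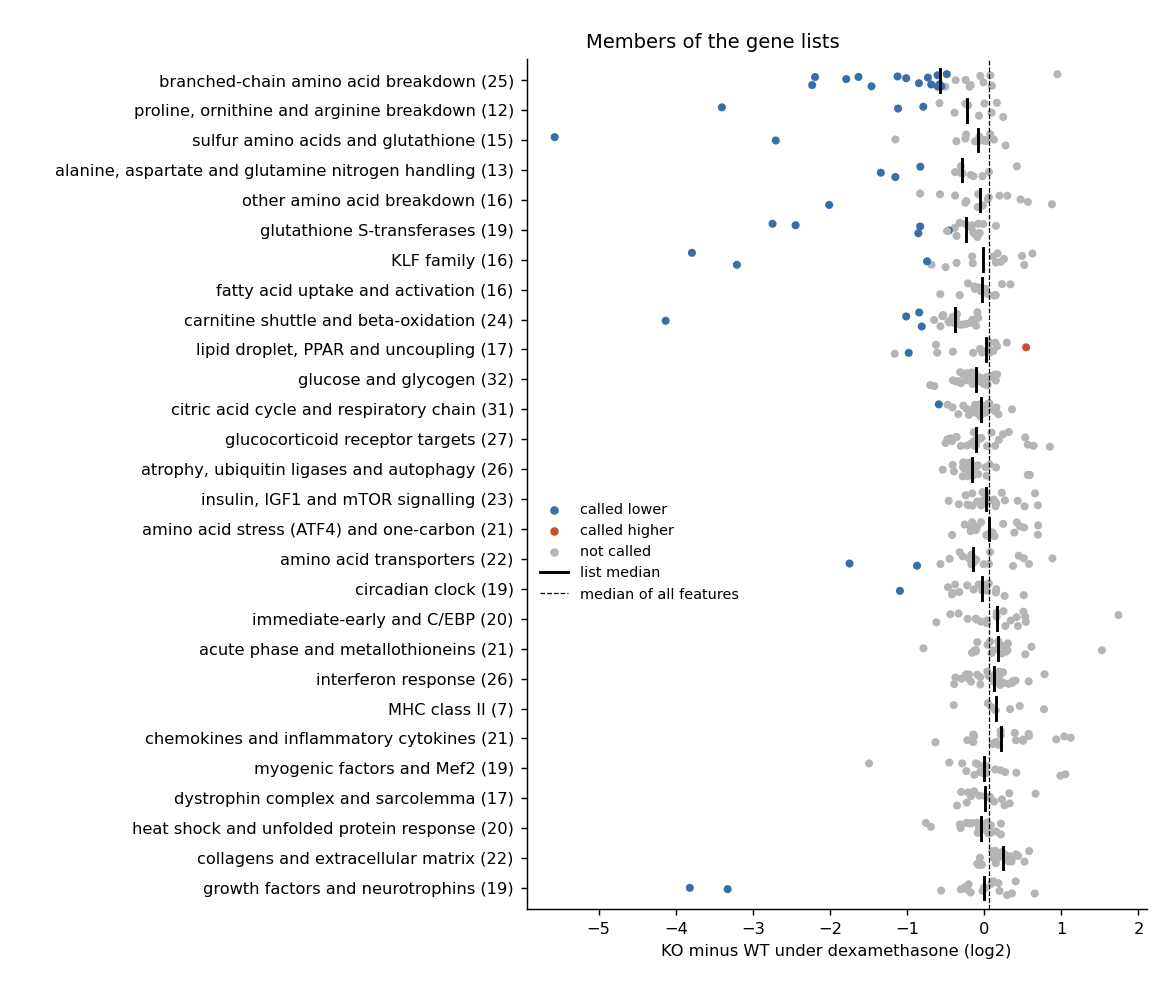
Log2 difference between KO and WT after dexamethasone for each measured member of 28 gene lists (points; number of members in brackets), with the list median (bar) and the median of all features, 0.06 (dashed). The 15 called genes of branched-chain amino acid breakdown form the densest group of falls, and Ppargc1a is the only called rise.

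Fat oxidation moved less. Of 24 measured genes of the carnitine shuttle and beta-oxidation 4 fell, where 0.818% of all features did. All 24 lay below zero with a median of -0.38, against 10593 of all 25196 features. Under the other scalings 22 to 24 of the list did, and with normexp 14. Acot1, a cytosolic thioesterase that frees fatty acids from CoA, had WT levels of 1.09, 3.03, 1.55 and 1.85 and KO levels of -1.97, -2.40, -1.99 and -2.65. The lowest WT array was still above every KO array by over 3 log2 units, and the fall was 17.5-fold (log2 -4.13, SE 0.44, adjusted p 0.00015; -3.08 with normexp). Acot1 has near-identical relatives, so its probe may read more than 1 gene. Slc25a20, the carnitine carrier, fell 1.75-fold and Cpt1a, the liver form of the enzyme that loads fatty acids onto carnitine, 1.80-fold. A second, dimmer probe of Cpt1a gave -0.46 (adjusted p 0.39). Slc25a20 was lost without KO replicate 2 or 4 (adjusted p at most 0.052) and Cpt1a without KO replicate 2 or 3 (at most 0.053); the fourth, Echs1, is described above. None of 16 genes of fatty acid uptake and activation passed, which is near the 1.84% of all features.

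Of 17 genes of lipid droplets, PPAR signalling and uncoupling, 1 fell and 1 rose, where 0.818% and 1.02% of all features did. Ucp3, a mitochondrial carrier induced by fatty acids, fell 1.97-fold (log2 -0.98, SE 0.19), and no longer passed without KO replicate 4 (adjusted p 0.053). Ppargc1a, a coactivator of mitochondrial genes, had WT levels of 1.14, 1.61, 1.12 and 1.24 and KO levels of 1.74, 1.85, 1.78 and 1.92, a 1.46-fold rise (adjusted p 0.026). It was lost in 6 of 16 fits without 1 array (adjusted p at most 0.079) and with median scaling (0.36, adjusted p 0.35). Outside that list, G0s2, an inhibitor of the lipase that empties lipid droplets, had WT levels of 2.64, 2.68, 2.70 and 2.17 and KO levels of 0.84, 1.37, 0.98 and 0.69, and was 2.98-fold lower (log2 -1.58, SE 0.21, adjusted p 0.0014). None of 32 glucose and glycogen genes passed, and of 31 of the citric acid cycle and respiratory chain only Suclg2, a succinyl-CoA ligase subunit, did (1.51-fold lower). Both counts are near the 1.84% of all features that passed. A second, dimmer probe of Suclg2 gave -0.01 (adjusted p 0.99).

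Of 19 measured glutathione S-transferases, which couple glutathione to reactive compounds, 5 fell, where 0.818% of all features did. Below zero lay 18 of the 19 (13 with normexp), against 10593 of all 25196 features. Gstm2 had WT levels of 4.72, 5.16, 4.11 and 4.28 and KO levels of 2.36, 1.87, 1.97 and 2.27, a 5.45-fold fall (adjusted p 1.4e-05). Gstm7 passed with 1 of 4 KO arrays above background, so the size of its fall is uncertain (log2 -2.75, -1.50 with the deposited values, and -1.11 with normexp, adjusted p 0.57). Gstm1, Gstm3 and Gstt3 gave -0.83, -0.86 and -0.46. The Gstm genes lie in a cluster of similar copies, so probes may share signal and the count may hold fewer separate changes. Selenbp1 and Selenbp2, selenium-binding proteins also nearly identical in sequence, fell 5.73-fold and 5.71-fold. The counts of the smaller lists depended on the setting: with slide as a fixed block 2 proline genes, 1 glutathione S-transferase and 0 genes of nitrogen handling and of the carnitine list passed, and with normexp 1 gene of each list did.

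In the Krüppel-like family 3 of 16 measured genes fell, where 0.818% of all features did: the targeted gene Klf15, Klf10 and Klf12. Another 4 were higher in KO without overlap, where 4.19% of all features were, and 0 of them passed: Klf2 (0.62, adjusted p 0.34), Klf3 (0.52, adjusted p 0.051, and 0.038 with the deposited values), Klf4 (0.49, adjusted p 0.17) and Klf7 (0.26, adjusted p 0.25). In all 8 of 16 lay below zero. Klf10, a regulator of TGF-beta responses and of metabolic genes, had WT levels of 1.67, 3.88, 3.30 and 2.68 and KO levels of -0.28, -0.69, -0.44 and 0.12. The WT spread was wide, and the fall of 9.24-fold (log2 -3.21, SE 0.36, adjusted p 0.00031) exceeded it, at -3.76 with slide as a fixed block. Klf12, a repressor, fell 1.67-fold, with -0.43 (adjusted p 0.44) at its dimmer second probe. Klf9, which glucocorticoids are known to induce, gave -0.50 (95% interval -0.84 to -0.16, adjusted p 0.15).

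Of 19 growth factor and neurotrophin genes 2 fell, where 0.818% of all features did, and both were among the largest falls. Fgfbp1, a carrier that releases FGFs from the matrix, had WT levels of 0.21, -1.39, 0.01 and 0.07 and KO levels of -3.36, -5.09, -4.25 and -3.68. The fall was 14.1-fold (log2 -3.82, SE 0.38, adjusted p 9.6e-05), and -2.22 with normexp. Bdnf, a neurotrophin that muscle also makes, had WT levels of -2.37, -1.63, -2.42 and -2.54 and KO levels of -5.18, -5.66, -5.60 and -5.86. On 3 of 4 KO arrays the probe was above background, and the log2 difference was -3.33 (SE 0.33, adjusted p 9.2e-05). It was -2.24 with the deposited values and -1.48 (adjusted p 0.18) with normexp, and its second, dimmer probe gave -0.69 with an SE of 1.35.

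Other genes completed the 15 largest falls. Adhfe1, a mitochondrial hydroxyacid-oxoacid transhydrogenase, had the largest difference on the scale used here, with WT levels of 0.29, -0.29, 0.09 and 0.07 and KO levels of -5.74, -6.54, -5.97 and -7.37. Of the 4 KO arrays 1 was above background, so the size is uncertain. The log2 difference of -6.45 (SE 0.36) was -4.37 with the deposited values and -2.77 with normexp, each past the threshold and each smaller than that of Cth (-4.46 and -2.97). Its second probe, dim in both groups, gave -2.03 (SE 0.76, adjusted p 0.21). Epop, a Polycomb-associated factor, fell 8.74-fold with no overlap (WT 0.79, 0.51, 0.28 and 0.80, KO -2.12, -2.51, -2.84 and -2.67). Epb41l5, a cytoskeletal adaptor, fell 6.02-fold, -2.59 with its bright probe and 0.03 (SE 0.32) with its dim one, and -1.44 (adjusted p 0.33) with normexp. Of all 164 other probes of called features 126 had the same sign, 42 passed in the same direction, 0 passed in the opposite one, and 77 showed less than 0.5 times the change of the probe used.

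Of 27 measured genes of the glucocorticoid receptor and its targets 0 passed. Over all features 1.84% passed, so 0 in 27 is near that share. The list median was -0.11, with 17 below zero (9 with normexp), against 10593 of all 25196 features. With slide as a random block 2 were called lower. Every KO array lay below every WT array for 2 of the 27, where 3.67% of all features did so: the receptor gene Nr3c1 (-0.48, 95% interval -0.81 to -0.15, adjusted p 0.15) and Glul, given above. Fkbp5, a co-chaperone that dampens the receptor, had WT levels of 3.06, 3.09, 3.03 and 2.84 and KO levels of 3.03, 2.70, 2.94 and 2.88. The ranges overlapped, and the difference was -0.12 (95% interval -0.47 to 0.23). The clock gene Per1 gave -0.14 (95% interval -0.43 to 0.16) and Tsc22d3, an anti-inflammatory leucine zipper factor, -0.04 (-0.32 to 0.24). Pdk4, the kinase that shuts off pyruvate dehydrogenase, gave -0.36 (-0.84 to 0.11).

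Atrophy genes were likewise not called: 0 of 26 passed, which is near the 1.84% of all features. Their median was -0.16, with 20 below zero (9 with normexp), against 10593 of all 25196 features. Foxo1, the transcription factor upstream of the atrophy programme, had WT levels of 5.16, 5.21, 4.86 and 5.06 and KO levels of 4.82, 5.01, 4.95 and 4.83 (difference -0.17, 95% interval -0.48 to 0.14). Trim63, the ubiquitin ligase MuRF1, gave -0.16 (-0.53 to 0.22). Fbxo32, the ligase atrogin-1, had WT levels of 4.15, 6.55, 4.88 and 5.12 and KO levels of 4.61, 4.70, 4.88 and 4.36. Its WT replicate 2 stood far above the rest, and the difference of -0.54 had an interval of -1.31 to 0.24, which reaches past a 2-fold change. Mstn, the growth inhibitor myostatin, gave 0.07 (-0.30 to 0.44). With normexp the differences of Fkbp5, Foxo1, Trim63, Per1 and Tsc22d3 turned positive. Of 23 genes of insulin, IGF1 and mTOR signalling 0 passed, also near the 1.84% of all features.

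Of 19 measured clock genes 1 fell, where 0.818% of all features did. Arntl, the core activator BMAL1, had WT levels of 0.90, 1.20, 1.03 and 1.00 and KO levels of -0.23, -0.09, -0.13 and 0.20, 2.13-fold lower with no overlap (log2 -1.09, SE 0.16, adjusted p 0.00295). It passed also with slide as a fixed block (-1.24, adjusted p 0.031). No other gene of the 19 measured clock genes passed. Every KO array lay below every WT array for 5 of the 19, Arntl included, where 3.67% of all features did so. The reverse held for 0 of the 19. List levels (the median member relative to its mean over all arrays) were -0.089 to 0.053 in WT and -0.250 to -0.097 in KO. These ranges did not overlap. The list median difference was -0.03, with 11 of 19 below zero.

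None of the measured genes of the interferon response (26), MHC class II (7), chemokines and cytokines (21), acute phase and metallothioneins (21), immediate-early factors (20), heat shock (20), collagens and matrix (22), myogenic factors (19) or the dystrophin complex (17) passed. Nor did any marker in 12 lists, of which 2 cover skeletal muscle and slow fibres and the others cover other cell types. Over all features 1.84% passed, so 0 in lists of these sizes is near that share. In the collagen and matrix list 4 of 22 genes lay below zero, with a median of 0.25. Fbln2 and Loxl2, matrix genes outside that list, were called higher and are described below. The 8 neutrophil markers were all below zero (median -1.10), with list levels from -1.88 to 7.86 in WT and -2.15 to 6.55 in KO. The 6 adipocyte markers were all above zero (median 0.79), with list levels from -1.03 to 0.46 in WT and -0.36 to 0.83 in KO. Both pairs of ranges overlap, and the part of these cells in the rises and falls was not tested.

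Rises were smaller, fewer of them carried a symbol (128, against 163 of the falls), and none of the gene lists held more than 1. Fbln2, an extracellular matrix protein, had WT levels of 2.28, 2.59, 2.05 and 2.15 and KO levels of 3.51, 3.14, 3.50 and 3.53, and rose 2.22-fold (log2 1.15, SE 0.14, adjusted p 0.00041). It kept its call under each other scaling and lost it with slide as a fixed block (1.13, adjusted p 0.13). Lao1, an L-amino acid oxidase, had WT levels of -1.17, -1.33, -1.75 and -1.40 and KO levels of -0.10, -0.25, -0.64 and -0.21, a 2.16-fold rise (adjusted p 0.0041). Loxl2, a collagen cross-linking enzyme, rose 2.03-fold (adjusted p 0.016, and 0.051 without KO replicate 1 or 2).

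When single arrays were left out, the remaining named rises fell into a less and a more stable set. Fsip1, the largest at 1.72, was above background on 0 of 4 WT and 2 of 4 KO arrays, which gives at least 1.03-fold, and Gabpb2, above background on 0 of 4 and 3 of 4, at least 1.82-fold. Sncg (synuclein gamma) rose 2.17-fold, Ica1l 2.41-fold, Fgf10, a fibroblast growth factor, 2.25-fold, Megf9 2.11-fold and Traf3ip1 2.11-fold. Single arrays ended these calls: Gabpb2 was lost in 13 of 16 fits without 1 array, Traf3ip1 in 12, Fsip1 in 9, Fgf10 in 7, Ica1l and Megf9 in 6 and Sncg in 5 (adjusted p at most 0.134). The other 5 kept their call whichever array was left out: Slx4ip (1.97-fold), Map9 (1.96-fold), Hmbox1 (1.98-fold), Ddx23 (2.02-fold) and 2810006K23Rik (2.01-fold). Second probes of Slx4ip, Map9 and Hmbox1 had the same sign but did not pass, at 0.37, 0.25 and 0.23 (adjusted p 0.47, 0.33 and 0.85). That of Map9 was about as bright in WT as the probe used, and the others were dimmer. With slide as a fixed block, however, 0 of the 16 named rises passed. With normexp 142 of the 257 rises kept their sign, and Slx4ip, Map9, Hmbox1 and Ddx23 were not among them.

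Under vehicle fewer features passed than after dexamethasone. In the 8 vehicle arrays 66 features passed (0.262%): 60 were lower (0.238%) and 6 higher (0.0238%) in KO. Of the 60 lower ones 55 also fell after dexamethasone (91.7% of that list, and 26.7% of the 206 falls), and all 60 had the same sign. Among the 206 falls 190 (92.2%) were below zero under vehicle, where 64.5% of all features were, with a median of -0.45. Among the 257 rises 131 (51.0%) were above zero under vehicle, where 35.5% of all features were, with a median of 0.01, and only Fbln2 passed in both. That share was 87.5% of the 24 rises called with median scaling, 100% of the 6 called with normexp, and 35.0% to 63.2% when 1 array was left out. The 35.5% over all features holds for the main scaling only. The falls and rises were selected on the dexamethasone arrays. Selection alone makes their differences smaller on other arrays, so the medians under vehicle do not show a smaller genotype effect there.

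**Figure D4:**
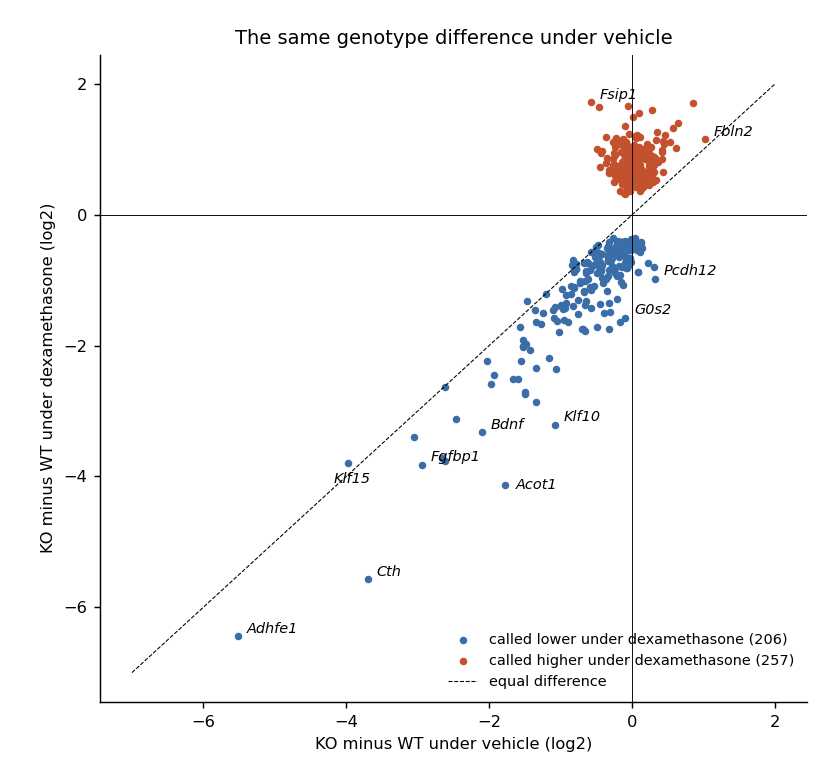
Log2 difference between KO and WT after dexamethasone (vertical) against the same difference under vehicle (horizontal) for the 463 called features; the dashed line marks equal differences. Falls stretch along the line or below it, with Klf15, Cth and Adhfe1 low on both axes, whereas rises gather around 0 on the vehicle axis. Features were selected on the vertical axis, which alone draws values on the vehicle axis toward 0.

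The test of the difference between both genotype effects (interaction) called 0 of 25196 features in limma, with 2893 at an unadjusted p under 0.05 and a smallest adjusted p of 0.092. Other settings called 0 to 6, except slide as a random block, which called 310. By this test no single gene's fall was shown to be larger after dexamethasone, and the values follow as a description. Cth was -3.70 under vehicle and -5.57 after dexamethasone (interaction -1.87, SE 0.30, adjusted p 0.099). G0s2 was -0.09 and -1.58 (interaction adjusted p 0.17), Slc38a3 0.09 and -0.87 (0.17), Acot1 -1.78 and -4.13 (0.21), Klf10 -1.08 and -3.21 (0.19) and Slc43a1 -0.32 and -1.75 (0.24). Klf15 itself was -3.97 and -3.79 (interaction adjusted p 0.90), and Aldh6a1 and Prodh were -2.03 and -2.23, and -3.05 and -3.40. In the branched-chain list 7 of 25 genes fell under vehicle, with a median of -0.43.

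The response to dexamethasone within each genotype shares arrays with the comparison above, so its values are only set beside it. It called 10.7% of features in WT and 10.2% in KO. In WT muscle G0s2 rose by 1.94 log2 units with dexamethasone and in KO by 0.45 (adjusted p 9.6e-05 and 0.25). Acot1 rose by 3.19 and 0.83 (adjusted p 0.00044 and 0.31), Slc43a1 by 1.83 and 0.40 (0.0013 and 0.52), and Klf10 by 1.54 in WT, with -0.59 in KO (0.015 and 0.42). Fkbp5 rose by 2.98 and 2.75, Foxo1 by 2.33 and 2.37, Trim63 by 1.61 and 1.67, and Pdk4 by 1.62 and 1.66, each past the threshold in both genotypes. Over the 206 falls the median response was 0.33 in WT and -0.08 in KO, and over the 257 rises -0.56 and 0.16. An unequal pass in WT and KO is not a shown difference, as the interaction test above found none.

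**Figure D5:**
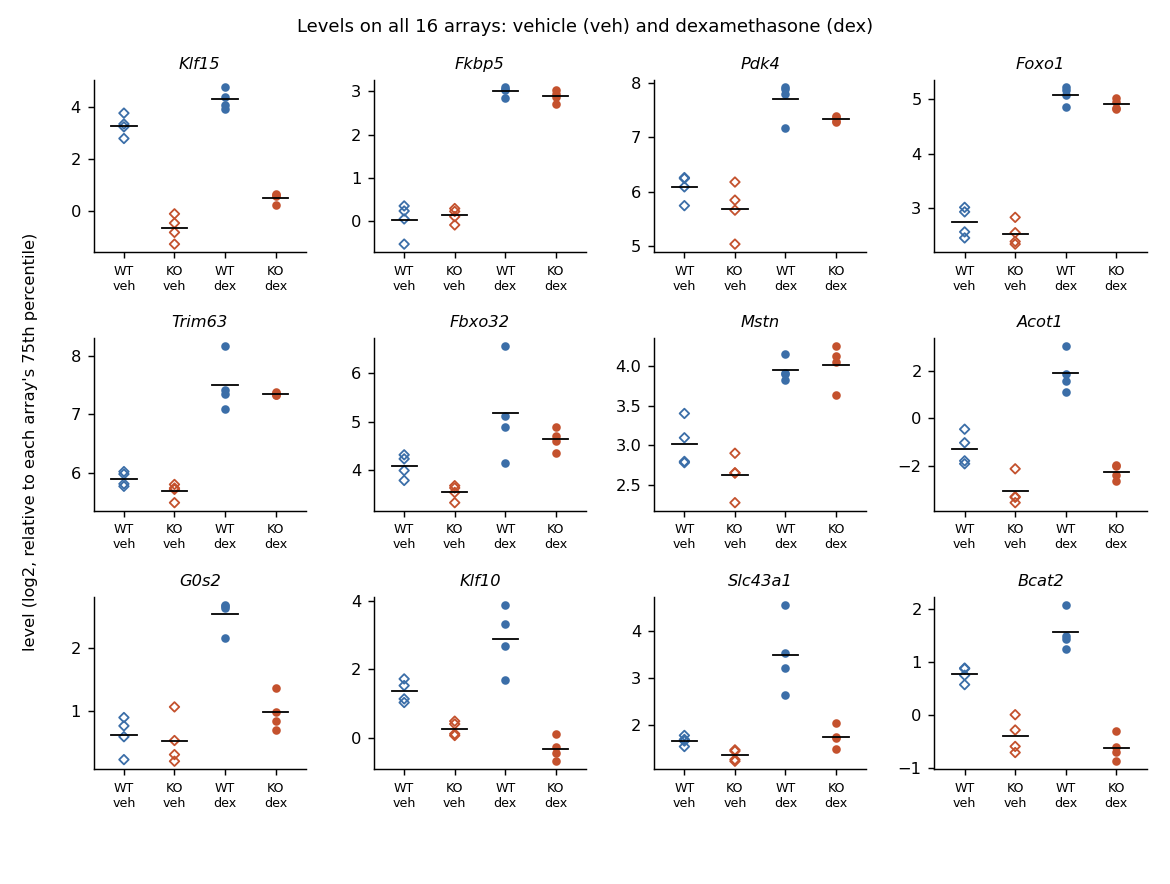
Level on all 16 arrays for 12 genes (open diamonds vehicle, filled circles dexamethasone; blue WT, red KO; bars are means of 4). Fkbp5, Foxo1, Trim63 and Pdk4 reach like levels in both genotypes after dexamethasone, whereas Acot1, G0s2, Klf10, Slc43a1 and Bcat2 end lower in KO.

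Genes next to Klf15 on its chromosome were described as a group. By RefSeq order (GRCm38.p6), 45 genes within 30 coding genes on either side were measured. Of them 2 fell and 1 rose, where 0.818% and 1.02% of all features did. The 2 were Aldh1l1, the direct neighbour and a folate enzyme of one-carbon metabolism (2.46-fold lower, adjusted p 0.023), and Suclg2, 27 genes away. The second probe of Suclg2 gave -0.01. Fbln2, 6 genes away, was the one that rose. Aldh1l1 had WT levels of 2.13, 2.21, 1.48 and 1.06 and KO levels of 0.92, 0.37, 0.28 and 0.12, and its call was lost in 5 of 16 fits without 1 array (adjusted p at most 0.075).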

How the data were processed

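RNA of 16 quadriceps samples was hybridised in 1 colour (Cy3) to Agilent mouse arrays, and the deposited scanner files of all 16 were analysed. Per the file headers, intensity was extracted with Feature Extraction 10.7.3.1, and the processed signal is already background-corrected. The authors' deposited log2 value table ranks probes as the scanner signal does; its array medians were 6.85 to 6.87, the sources used here do not state its centring, and it was used as an alternative.

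Each array was scaled to its 75th percentile over non-control probes and log2 transformed. Kept were probes that 4 or more of the 16 arrays held well above background, and the brightest probe stood for a gene. Of 26382 probes with a RefSeq accession 24844 were named through the RefSeq table (GRCm38.p6), other features keeping their accession. Group means were fitted to all 16 arrays with limma 3.58.1 in R 4.3.3, with Benjamini-Hochberg adjustment. Intervals are 95%. On simulated data for the comparison after dexamethasone (25115 features, 200 of them changed), 58% of changes of 1 log2 unit and 80% of changes of 2 were recovered, with 8 false calls, and the interaction test recovered 31% and 67%. The simulated noise was independent between arrays and between features, without a slide effect. Arrays of the same slide were correlated here (0.574), so the simulation does not give the recovery or false calls of these data. The number of arrays limits the precision.

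The members and gene lists were chosen with earlier results of these data known. Genes were named by rule: the 15 largest falls and the 15 largest rises whose groups did not overlap, the leading members of each list, all members of the main amino acid and KLF lists, neighbours of Klf15, and the called genes that differed most from vehicle. Alternatives were scalings, normexp (on median spot signal, as the mean was not used here), filters, the mean of probes, slide as a fixed or random block, the replicate number as a block, and subsets of arrays. Replicate numbers were not treated as pairs, since 1 of the 4 pairs after dexamethasone had a correlation of deviations over 0.1.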

Additional observations from a re-analysis of the deposited data

Results flagged for a closer look

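Among 180 groups of 4 arrays (90 named genes, each in WT and KO after dexamethasone), 10 held an array whose gap to its nearest neighbour passed Dixon's 95% critical value, where chance flags about 1 in 20 groups. In KO, replicate 2 was the lowest array for Klf15 (0.24), Fbln2 (3.14) and Acat1 (3.80). In WT, replicate 1 was the lowest for Pdk4 (7.18), Slx4ip (-3.29) and Ddx23 (-4.40) and the highest for Ica1l (-2.87). WT replicate 2 was the lowest for Fgfbp1 (-1.39), replicate 3 for Tsc22d3 (4.75) and replicate 4 for G0s2 (2.17).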

How the results depend on the processing

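All 206 falls kept their sign under each alternative run except the mean of probes (204) and the filter on all 16 arrays (198). The 257 rises did so except with normexp (142), the mean of probes (256) and the filters on 8 arrays (247) and on all 16 (224), where the stricter filters test fewer features. Klf15 stayed between -3.98 and -3.41. Of 463 features, 257 higher and 206 lower, the calls were 205 (24 higher) with median scaling, 140 higher with quantile normalization, 148 higher with the deposited values, and 47 (6 and 41) with normexp. They were 45 (7 and 38) with slide as a fixed block, 951 (521 and 430) with slide as a random block, and 108 (33 and 75) on the dexamethasone arrays alone. Without the arrays high in neutrophil markers 235 passed (101 and 134), and without those the scanner software marked for evaluation 109 (34 and 75). Leaving out 1 array gave 280 to 476 in all, 127 to 263 higher and 153 to 213 lower. The fewest came without KO replicate 3, and rises also dropped to 130 without KO replicate 2, 164 without KO replicate 4 and 167 without WT replicate 1. The cause was not tested.

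With the replicate number as a block 289 passed (138 higher, 151 lower) and 56 under vehicle. The numbers gave no pairing, same-numbered arrays having a median correlation of deviations of -0.04 (-0.66 to 0.66 over 24 pairs).

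Under vehicle, where 66 passed, 38 did with median scaling, 15 with normexp, 19 with slide as a fixed block and 447 with it as a random block. The interaction called 1 feature with the deposited values, 2 with limma's trend and robust options, 6 with a filter on all 16 arrays, 310 with slide as a random block, and 0 to 5 when 1 array was left out.

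List medians relative to that of all features were -0.64 for branched-chain breakdown, -0.35 for nitrogen handling, -0.44 for the carnitine shuttle and beta-oxidation, -0.29 for proline, -0.30 for glutathione S-transferases, -0.17 for receptor targets and -0.22 for atrophy. With normexp they were -0.064, 0.23, 0.24, -0.11, 0.018, 0.43 and 0.35 in that order. Branched-chain breakdown was -0.55 with quantile normalization, -0.57 with slide as a fixed block and -0.70 to -0.58 without 1 array. Nitrogen handling was -0.23 with quantile normalization and -0.19 with the deposited values. The carnitine list was -0.33 with quantile normalization, -0.30 with the deposited values, -0.35 in the fit with fixed slide terms and -0.37 where slide was random. Proline was -0.074 with slide as a fixed block.

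Of 64 named genes that passed besides Klf15, 18 were lost in at least 1 fit without 1 array. With slide as a fixed block 16 of 48 falls and 0 of 16 rises kept their call. With normexp 18 of the falls and 1 rise did, and 9 rises turned negative: Ddx23 -0.23, Fgf10 -0.40, Fsip1 -0.64, Gabpb2 -0.61, Hmbox1 -0.30, Map9 -0.13, Megf9 -0.42, Slx4ip -0.014 and Traf3ip1 -0.36.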
